A study of Nematostella vectensis with 4 samples.

Results

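Tubulin isotypes are related proteins, encoded by separate genes, that build the same polymer. The 4 isotype genes described here are the alpha tubulin model NVE24199 (named TBA_XENLA) and the beta tubulin models NVE5239 (TBB4_XENLA), NVE6609 (TBB_PARLI) and NVE25565 (TBB_PARLI). They were taken by identifier from a table of 25734 gene models of the starlet sea anemone Nematostella vectensis, in which 36 models carry the name of an alpha, beta, gamma, delta or epsilon tubulin. The names are entries of a protein database that point to a related protein in another animal (XENLA is the frog Xenopus laevis and PARLI the sea urchin Paracentrotus lividus), and the sources used here do not state how a model got its name.

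Polyps of 5 months, called sub-adult in the labels, were dissected into tentacle, mesentery (the folds that hang into the gut cavity), pharynx and body wall, and 1 droplet single-cell RNA library was made from each. The labels give no strain, treatment or genotype that differs between the tissues, and the sources used here do not state how many animals went into a library. Each tissue is a single library, so no test was made, tissue and library cannot be told apart, and all intervals (95%) cover counting error only.

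Alpha and beta tubulin join as a dimer, and dimers stack into microtubules, the hollow filaments that carry cargo, separate chromosomes and form the core of cilia. In animals that have been studied, some isotypes are made in nearly every cell while others are added in cilia, neurons, sperm or dividing cells. Sea anemones bear cilia on their epithelial cells, and their stinging cells carry a sensory cilium and a cage of microtubules around the capsule.

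Values are counts of unique molecular identifiers (UMIs, 1 for each captured RNA molecule) in barcodes with at least 300 UMIs. These numbered 1299 in tentacle, 1357 in mesentery, 2804 in pharynx and 1652 in body wall, with medians of 703, 542, 563 and 766 UMIs. Levels are UMIs of a gene per 1000000 UMIs of the tissue (CPM), over totals of 1843444 UMIs in tentacle, 1563722 in mesentery, 2755343 in pharynx and 2003883 in body wall. Between 1 and 9 barcode sequences were shared by each pair of libraries (22 in all). Some genes were looked up by tissue, and their levels are given as a description only. Earlier results of these data were known when genes were chosen. The stinging capsule gene Ncol3 (NVE9976) was highest in tentacle, at 9755 CPM, with 1526 CPM in pharynx. The foregut transcription factor gene NvFoxA (NVE20630) had 322 CPM in pharynx and 182 CPM in mesentery, and the collagen model NVE21527 (CO7A1_MOUSE) had 2436 CPM in body wall with 1 UMI in all of tentacle.

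The alpha isotype NVE24199 had nearly the same level in every tissue. It had 1149 CPM in tentacle (1101 to 1199; 2119 UMIs), 1127 CPM in mesentery (1075 to 1181; 1762 UMIs), 1028 CPM in pharynx (990.3 to 1066; 2832 UMIs) and 1198 CPM in body wall (1150 to 1247; 2400 UMIs). The body wall and the tentacle, the tissues at the top of that order, differed by a ratio of 1.04 with an interval that holds 1 (0.982 to 1.11), and so did tentacle and mesentery (1.02, 0.957 to 1.09). Only the step down to the pharynx lay outside counting error, at 1.10 (1.03 to 1.16). The ratio of body wall to pharynx was 1.17 (1.10 to 1.23), and it turned to 0.966 when each barcode's own CPM was averaged instead of summing UMIs, so no order of the tissues is read from it.

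The beta isotype NVE5239 was as even. Its levels were 910 CPM in tentacle (867 to 954; 1677 UMIs), 1008 CPM in mesentery (959 to 1059; 1576 UMIs), 912 CPM in pharynx (876 to 948; 2512 UMIs) and 1050 CPM in body wall (1006 to 1096; 2105 UMIs). Pharynx and tentacle did not differ beyond counting error (1.00, 0.942 to 1.07), nor did body wall and mesentery (1.04, 0.976 to 1.11), while mesentery stood above pharynx by 1.11 (1.04 to 1.18).

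NVE6609 had a low level in tentacle and a common level elsewhere. It had 464 CPM in tentacle (433 to 496; 855 UMIs), 870 CPM in mesentery (824 to 917; 1360 UMIs), 829 CPM in pharynx (795 to 863; 2283 UMIs) and 853 CPM in body wall (813 to 895; 1710 UMIs). The mesentery, body wall and pharynx did not differ beyond counting error at either step of their order (1.02, 0.948 to 1.10, and 1.03, 0.967 to 1.10). The tentacle lay below the lowest of them by a ratio of 1.79 (1.65 to 1.93).

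NVE25565 varied most. It had 715 CPM in tentacle (677 to 755; 1318 UMIs), 301 CPM in mesentery (274 to 329; 470 UMIs), 397 CPM in pharynx (374 to 421; 1093 UMIs) and 137 CPM in body wall (121 to 154; 274 UMIs). Every step of the order lay outside counting error: tentacle above pharynx by 1.80 (1.66 to 1.95), pharynx above mesentery by 1.32 (1.18 to 1.47) and mesentery above body wall by 2.20 (1.89 to 2.56). From tentacle to body wall the ratio was 5.23 (4.59 to 5.98). Barcodes with fewer than 300 UMIs, which were left out of these values and hold RNA of small or empty droplets, gave 653 CPM in tentacle, 391 CPM in pharynx, 175 CPM in mesentery and 127 CPM in body wall, the same order.

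**Figure D1:**
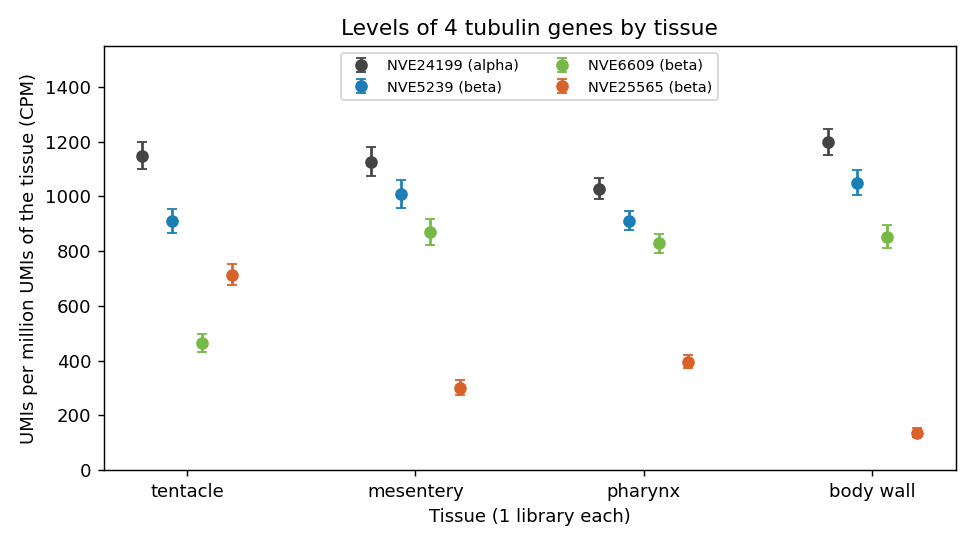
CPM (UMIs per 1000000 UMIs of the tissue) of each gene in each tissue, 1 library each; points are sums over barcodes and bars are exact 95% Poisson intervals, which cover counting error only. NVE24199 and NVE5239 stay near 1000 CPM in every tissue, NVE6609 dips to 464 CPM in tentacle and NVE25565 runs from 715 CPM in tentacle down to 137 CPM in body wall.

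A ratio of at least 2 between the highest and the lowest tissue was found in 1 of the 4 isotypes, NVE25565. Among the 3155 gene models with at least 200 UMIs over the tissues, 65.4% had such a ratio. Of 824 models with at least 1000 UMIs, 26 had a smaller ratio than NVE5239, 34 a smaller ratio than NVE24199, 310 a smaller ratio than NVE6609 and 583 a smaller ratio than NVE25565, and the median ratio was 2.40. None of the 4 reached the 4-fold step over every other tissue that marks a tissue-high gene, which 4.23% of 8222 models with at least 50 UMIs reached in tentacle, 1.8% in mesentery, 1.63% in pharynx and 2.75% in body wall. None was tissue-low, at most 0.25-fold of every other tissue, as 0.778% of the same models were in tentacle, 0.243% in mesentery, 0.073% in pharynx and 0.414% in body wall.

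The share of barcodes with at least 1 UMI gave the same picture. For NVE24199 it was 56.7% in tentacle, 47.7% in mesentery, 45.4% in pharynx and 50.5% in body wall. For NVE25565 it was 40.0% in tentacle, 15.03% in mesentery, 22.1% in pharynx and 12.2% in body wall. Such shares grow with depth, so each barcode was also thinned to 300 UMIs, and no barcode was lost since all held that many.

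After thinning, the NVE24199 share lay between 25.4% (body wall; 23.3 to 27.5) and 29.0% (tentacle; 26.6 to 31.6). The NVE5239 share lay between 21.4% (tentacle; 19.2 to 23.7) and 25.4% (body wall; 23.3 to 27.6). For NVE6609 the tentacle had 12.9% (11.1 to 14.8), below the 21.5% of mesentery, 19.8% of pharynx and 21.0% of body wall. For NVE25565 the thinned shares were 18.2% in tentacle (16.1 to 20.4), 10.9% in pharynx (9.82 to 12.2), 6.48% in mesentery (5.23 to 7.93) and 3.81% in body wall (2.94 to 4.85). Every animal cell needs tubulin, so no cell type is known to lack all of it as a measure of free RNA. The lowest thinned share in a cluster of at least 50 barcodes was 3.70% for NVE24199, 8% for NVE5239, 6.02% for NVE6609 and 0.752% for NVE25565, the last in cluster 24 (132 of 133 barcodes from body wall, median 1415 UMIs).

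Few barcodes held many molecules. Of the tentacle barcodes with NVE25565, 237 had 1 UMI and 64 had at least 5, and in body wall 160 had 1 and 5 had at least 5. In mesentery the 1% of barcodes with the most NVE25565 UMIs held 41.5% of them, against 13.9% in tentacle. These counts were not thinned and grow with depth. The mesentery barcode with the most, 30 UMIs, had 38461 UMIs in all, and the tentacle one, with 21, had 2031. After thinning, the variance of NVE25565 counts over their mean was 1.21 in mesentery and 1.57 in tentacle.

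As a share of the UMIs of the 3 beta isotypes, NVE5239 kept a similar part in each tissue, with 43.6% in tentacle (42.0 to 45.1), 46.3% in mesentery (44.6 to 48.0), 42.7% in pharynx (41.4 to 43.9) and 51.5% in body wall (49.9 to 53.0). NVE25565 made up 34.2% in tentacle (32.7 to 35.8), 18.6% in pharynx (17.6 to 19.6), 13.8% in mesentery (12.7 to 15.003) and 6.70% in body wall (5.95 to 7.51). NVE6609 moved the other way, from 22.2% in tentacle (20.9 to 23.6) to 41.8% in body wall (40.3 to 43.3). These are shares of captured molecules; how well each model's 3′ end was captured and annotated was not tested, so the order of the genes within a tissue is not read as an order of RNA abundance.

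**Figure D2:**
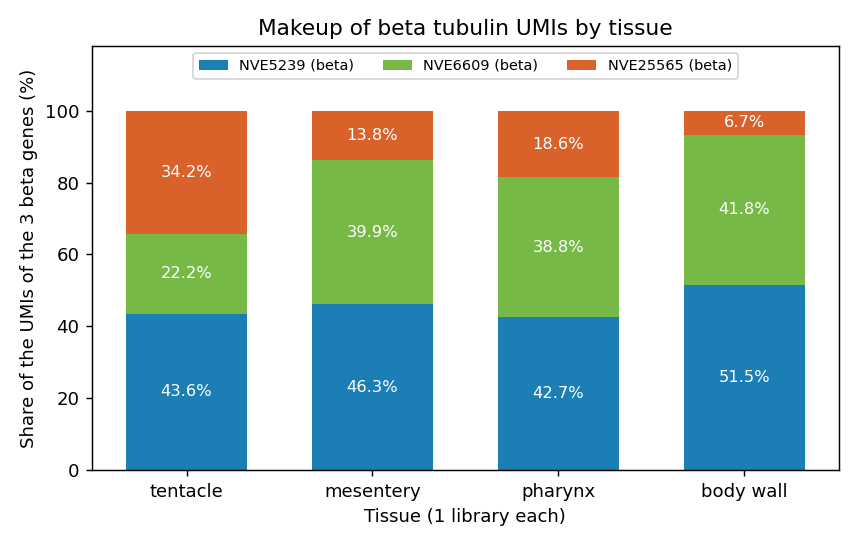
Percentage of the UMIs of the 3 beta isotypes that each one contributed, by tissue (1 library each); bars start at 0 and each adds to 100%. The NVE25565 part is 34.2% in tentacle and 6.70% in body wall, while the NVE5239 part is between 42.7% and 51.5% in all 4.

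The sum over all beta tubulin models hardly differed between tissues. It was 2141 CPM in tentacle (2074 to 2208), 2202 CPM in mesentery (2129 to 2277), 2156 CPM in pharynx (2101 to 2211) and 2154 CPM in body wall (2090 to 2219). The ratio of highest to lowest was 1.03 (0.982 to 1.08). The 3 beta isotypes held between 94.7% (body wall) and 99.1% (pharynx) of these UMIs. The sum would count a molecule given to both NVE5239 and NVE6609 more than once, which was not tested.

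The sum over all alpha tubulin models was higher in tentacle. It was 3566 CPM there (3480 to 3653), 2176 CPM in mesentery (2103 to 2250), 2201 CPM in pharynx (2146 to 2257) and 2374 CPM in body wall (2307 to 2442), so that tentacle exceeded body wall by 1.50 (1.45 to 1.56). NVE24199 held 32.2% of the alpha UMIs in tentacle, 51.8% in mesentery, 46.7% in pharynx and 50.5% in body wall. Its level was even while other alpha models differed between tissues.

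Of the 32 other tubulin models, 3 had no UMI, 12 had fewer than 50 and 17 had at least 50. All 11 of them with at least 200 UMIs differed by at least 2 between their highest and lowest tissue, beside the 65.4% of all models. Tentacle-high were 6 alpha models, beside 4.23% of all models with at least 50 UMIs. NVE24201 (TBA1_PARLI) had 1410 UMIs in tentacle, 51 in mesentery, 140 in pharynx and 126 in body wall, 12.2-fold above the second tissue (10.1 to 14.7). NVE14933 (TBA1C_HUMAN) had 1165, 23, 50 and 33 UMIs in the same order, a ratio of 34.8 (26.2 to 47.2). The other four, NVE15488 (TBA2_PATVU), NVE14884, NVE14885 and NVE14886 (all TBA1_DROME), had 358, 319, 98 and 64 UMIs in tentacle.

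Tentacle-low were 2 alpha models. NVE2702 (TBA1D_BOVIN) had 33 UMIs in tentacle, 716 in mesentery, 1021 in pharynx and 1227 in body wall. NVE2697 (TBA3_RAT) had 6, 162, 265 and 244 UMIs. The share of all models with at least 50 UMIs that were tentacle-low was 0.778%.

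The body wall had the tissue-high beta model NVE12944 (TBB4_CAEEL), with 189 UMIs there and 35, 15 and 17 in tentacle, mesentery and pharynx, and the alpha model NVE24202 (TBA1_PARLI), with 117 UMIs there and 12 in each other tissue (background 2.75%). The mesentery had NVE2701 (TBA3_RAT), with 121 UMIs there and 3, 42 and 26 in tentacle, pharynx and body wall (background 1.8%). No call was made for 6 models: NVE1706 and NVE24200 (both TBA2_PATVU), NVE24203 and NVE9425 (both TBA1_PARLI), NVE2699 (TBA1D_BOVIN) and NVE11826 (TBG1_BOVIN), the gamma tubulin that nucleates microtubules, with 50 UMIs in all.

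The beta isotypes NVE5239 and NVE6609 were counted together far more evenly than independent molecules would be. In barcodes with exactly 2 UMIs of this pair, 75.3% had 1 of each (719 of 955; 72.4 to 78.0), where independent draws give at most 50%. The share was 67.8% in tentacle (103 of 152), 79.2% in mesentery (137 of 173), 77.5% in pharynx (293 of 378) and 73.8% in body wall (186 of 252). For NVE5239 with NVE25565 249 of 830 such barcodes had 1 of each. It was 30.7% for NVE6609 with NVE25565 (229 of 746) and 37.4% for NVE24199 with NVE5239 (410 of 1095).

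A pair index put this on 1 scale: the spread of a pair's split over barcodes with at least 2 of its UMIs, divided by the spread of independent draws at the tissue's own split, so that 1 means independent draws and lower values a more even split. NVE5239 with NVE6609 had 0.482, and 0.557, 0.398, 0.470 and 0.506 in tentacle, mesentery, pharynx and body wall. The index was under 1 in 0.259% of 31321 pairs of models with at least 2000 UMIs and totals within 2-fold of each other, the median was 1.97 and this pair was the lowest. Every other pair of the 4 isotypes was above 1, from 1.43 (NVE6609 with NVE25565) to 1.79 (NVE24199 with NVE25565).

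Among 72 pairs of tubulin models, 1 was under 1. The next lowest indices in the whole table were for RL26_LITLI with RL26_LITLI (NVE16291 and NVE23244, 0.512), a pair of models of the same ribosomal protein, and for OSTC_RAT with OSTC_HUMAN (NVE17226 and NVE19652, 0.545), models of the same subunit of the enzyme that attaches sugar chains to proteins. Of the 12 tested pairs of models with an identical name, 5 were under 1. The fourth lowest pair had unlike names, H2A_ACRFO, a histone, and RPN1_MOUSE, a subunit of the same sugar-transferring enzyme (NVE11853 and NVE15835, 0.565). Whether molecules of 1 model of the pair NVE5239 and NVE6609 were counted for the other was not tested, and the level of each, their joint presence in barcodes, their likeness over clusters and the counts of barcodes that favour either are uncertain to that extent. Their sum does not depend on how molecules were divided between them, though it would count a molecule given to both. It was 1374 CPM in tentacle (1321 to 1428), 1878 CPM in mesentery (1810 to 1947), 1740 CPM in pharynx (1691 to 1790) and 1904 CPM in body wall (1844 to 1965), a ratio of body wall to tentacle of 1.39 (1.32 to 1.46).

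The split of the pair differed between tentacle and the other tissues, and it lay the same way inside the cell clusters they shared. NVE5239 took 66.2% of the pair's UMIs in tentacle (64.4 to 68.1), 53.7% in mesentery (51.9 to 55.5), 52.4% in pharynx (51.0 to 53.8) and 55.2% in body wall (53.6 to 56.8). Over 13 clusters with at least 30 UMIs of the pair in tentacle, the share ran from 58.1% to 71.4% with a median of 66.6%. The medians over clusters were 53.6% in mesentery, 51.8% in pharynx and 54.6% in body wall. Within the same cluster the tentacle share was higher than that of pharynx in 9 of 9 clusters, than that of mesentery in 5 of 5 and than that of body wall in 4 of 4. In most of these comparisons the counting intervals of tentacle and the other tissue overlapped. Overlap alone does not place a difference within counting error, and no interval was taken for the difference itself. The tentacle interval was clear of that of pharynx in cluster 10 only, of that of body wall in clusters 1 and 9 only, and of that of mesentery in none. In barcodes of cluster 3 the tentacle share rested on 33 UMIs (45.1 to 79.6). In barcodes under 300 UMIs the NVE5239 share was 68.0% in tentacle, 54.6% in mesentery, 53.4% in pharynx and 55.7% in body wall.

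**Figure D3:**
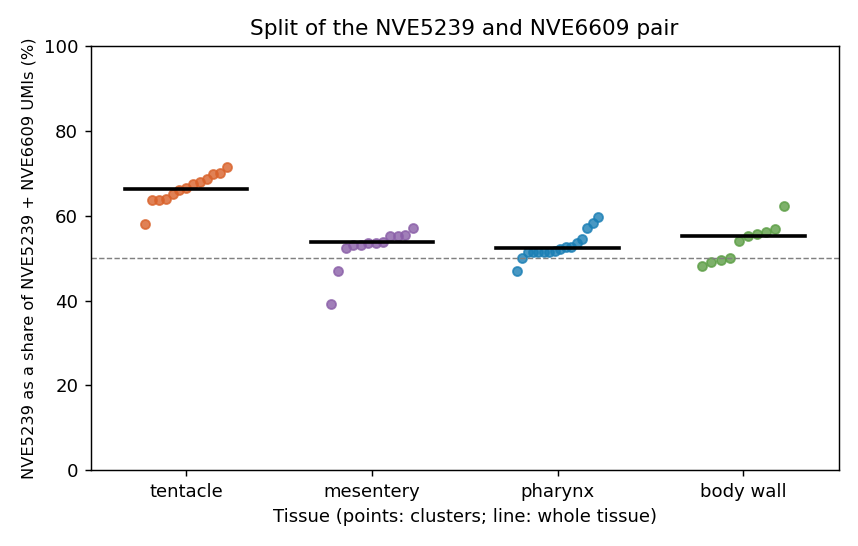
NVE5239 as a percentage of the UMIs of NVE5239 and NVE6609, by tissue; each point is a cluster with at least 30 of these UMIs in that tissue, sorted by value, the black line is the whole tissue and the dashed line is 50%. The tentacle points run from 58.1% to 71.4% around 66.2%, and the other tissues centre between 52.4% and 55.2%.

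Cells were clustered over all 4 libraries without any tubulin gene, so that no isotype shaped the clusters. Of 27 clusters, 24 had at least 50 barcodes. Clusters 2 and 12 were muscle-like and clusters 20 (39 barcodes) and 23 digestive gland-like by their marker genes; the others are given by number and leading genes.

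The beta isotypes shared their highest cluster, cluster 9, in which NVE5239 had 2632 CPM (2366 to 2919), NVE6609 had 1897 CPM (1672 to 2143) and NVE25565 had 1985 CPM (1755 to 2237). This cluster of 140 barcodes, 54 of them from tentacle and 73 from body wall, was led by NVE1663 (NUPR1_RAT) and NVE7082 (BIR7B_XENLA) and was left unnamed. The next highest for all 3 was cluster 10, with 1807, 1633 and 1432 CPM of NVE5239, NVE6609 and NVE25565. Its 189 barcodes, 146 of them from pharynx, were led by genes named after cilium and sperm tail proteins, such as NVE26201 (ODF3A_XENLA) and NVE19785 (ENKUR_HUMAN), and 4 of its 30 leading genes were cilium markers, none among the first 10. In cluster 7 the levels were 1594, 1227 and 975 CPM. Its first leading genes were the unnamed models NVE13199 and NVE20734, others were named after proteins of the mitotic spindle and kinetochore, such as NVE7848 (DLGP5_MOUSE) and NVE9959 (CENPF_HUMAN), and 1 of its 30 leading genes was a division marker, not among the first 10. The 32 mesentery barcodes of that cluster had a median of 5788 UMIs, far above the 525 to 819 of the other tissues.

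NVE24199 was highest in cluster 15, at 1902 CPM (1777 to 2034), where the heat-shock genes NVE10283 (HSP11_CAEEL) and NVE15435 (HS71L_BOVIN) were among the leading genes and 650 of 740 barcodes came from pharynx. Cluster 18, from body wall, was next at 1830 CPM (1660 to 2012), within counting error of it. Among clusters with at least 50 barcodes, the lowest level of NVE24199 was 157 CPM (115 to 208) in cluster 22. The ratio of highest to lowest was 12.1 (9.05 to 16.7). Cluster 22 had 14006 CPM of the stinging capsule gene Ncol3 and 70 of its 81 barcodes came from pharynx.

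Over the 24 clusters with at least 50 barcodes, the range was widest for NVE25565. It ran from 60.3 CPM (33.0 to 101, cluster 24) to 1985 CPM, a ratio of 32.9 (19.3 to 61.0), with a median of 228 CPM. For NVE5239 the ratio of highest to lowest was 6.78 (4.64 to 10.3) and for NVE6609 it was 5.07 (4.18 to 6.14). The digestive gland-like cluster 20, left out of these ranges with 39 barcodes, was lower still. It had 141 CPM of NVE24199 (9 UMIs), 94.3 CPM of NVE5239 (6 UMIs), 141 CPM of NVE6609 (9 UMIs) and 31.4 CPM of NVE25565 (2 UMIs). NVE25565 was low in the muscle-like clusters, at 66.8 CPM in cluster 2 and 147 CPM in cluster 12. It was also low in the digestive gland-like cluster 23, at 66.9 CPM. Within cluster 12 it had 284 CPM in tentacle (37 UMIs), 30.8 CPM in mesentery (2 UMIs) and 48.4 CPM in pharynx (5 UMIs). NVE25565 was about as low as in cluster 2 in unnamed clusters, such as cluster 14 at 76.5 CPM and cluster 19 at 77.0 CPM. The Ncol3-rich clusters differed in it: 961 CPM in cluster 6 and 585 CPM in cluster 4, both from tentacle, 204 CPM in cluster 5 and 70.0 CPM in cluster 22, with Ncol3 at 18169, 28111, 13932 and 14006 CPM in the same order.

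**Figure D4:**
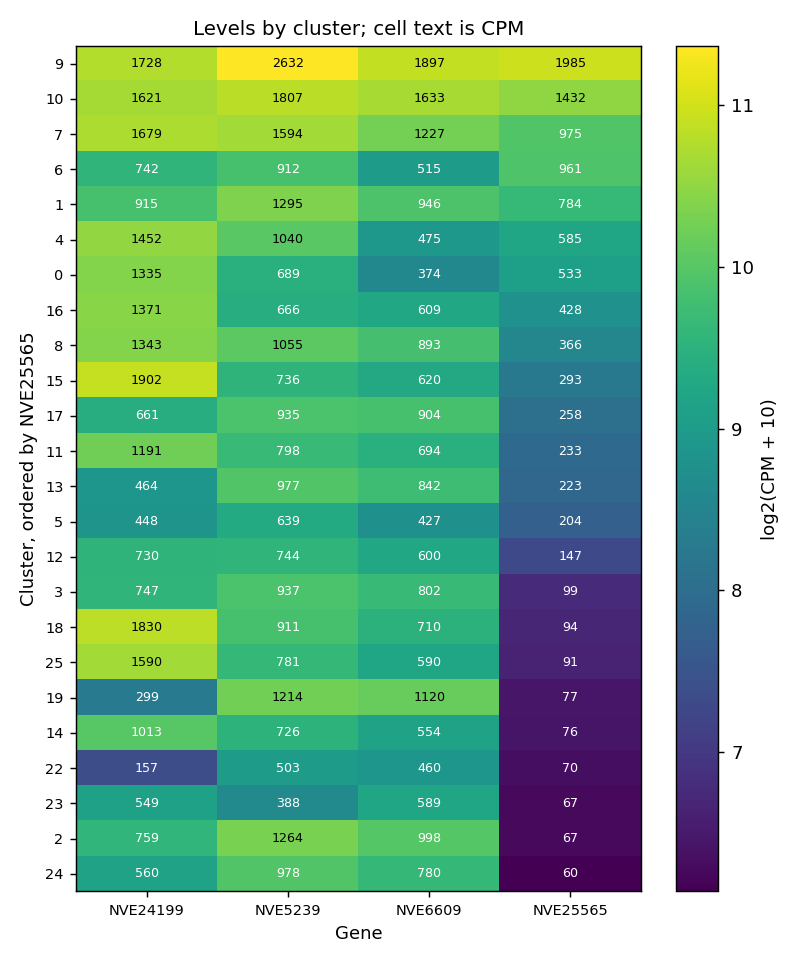
CPM of each gene in the 24 clusters with at least 50 barcodes, ordered by NVE25565; colour is log2(CPM + 10) and the text in each cell is CPM. Clusters 9, 10 and 7 are at the top for NVE25565, at 1985, 1432 and 975 CPM, and NVE24199 has its highest value, 1902 CPM, in cluster 15.

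The tissue differences of NVE25565 and NVE6609 were also present inside most clusters. Among clusters with at least 20 barcodes in both tissues, NVE25565 was higher in tentacle than in pharynx in 11 of 11, than in mesentery in 6 of 6 and than in body wall in 5 of 5. The median ratios were 1.70, 2.65 and 3.37, and the counting interval lay above 1 in 4, 3 and 5 clusters. In cluster 9 it had 3424 CPM in tentacle (224 UMIs) and 645 CPM in body wall (35 UMIs). The alpha model NVE14933 differed there too, at 9035 and 92.1 CPM. Whether the barcodes of a cluster were the same cell type in each tissue was not tested. NVE6609 was lower in tentacle than in pharynx in 10 of 11 clusters, with a median ratio of 0.476, than in mesentery in 5 of 6 and than in body wall in 5 of 5. NVE5239 was higher in tentacle than in body wall in 2 of 5 clusters, with a median ratio of 0.970. The muscle-like cluster 12 had 161 CPM of NVE6609 in tentacle (21 UMIs), 1184 CPM in mesentery (77 UMIs) and 783 CPM in pharynx (81 UMIs).

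NVE24199, even in the whole tissues, differed between tissues in some clusters and not in others. The counting interval of tentacle against the other tissue lay clear of 1 in 4 of 11 clusters for pharynx, 3 of 6 for mesentery and 3 of 5 for body wall, each time with tentacle higher. In cluster 7 the intervals of all 4 tissues overlapped, at 1616 CPM in tentacle, 1759 CPM in mesentery, 1581 CPM in pharynx and 1480 CPM in body wall. In cluster 9 it had 3134 CPM in tentacle (205 UMIs) and 461 CPM in body wall (25 UMIs), and in cluster 1 it had 1445 CPM in tentacle (156 UMIs), 366 CPM in mesentery (8 UMIs), 456 CPM in pharynx (28 UMIs) and 636 CPM in body wall (39 UMIs). In cluster 3 the order was 1695 CPM in tentacle (72 UMIs), 1127 CPM in mesentery (196 UMIs) and 536 CPM in pharynx (271 UMIs). It was higher in tentacle than in pharynx in 7 of 11 clusters and than in body wall in 5 of 5, and it was higher than in mesentery in 3 of 6.

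**Figure D5:**
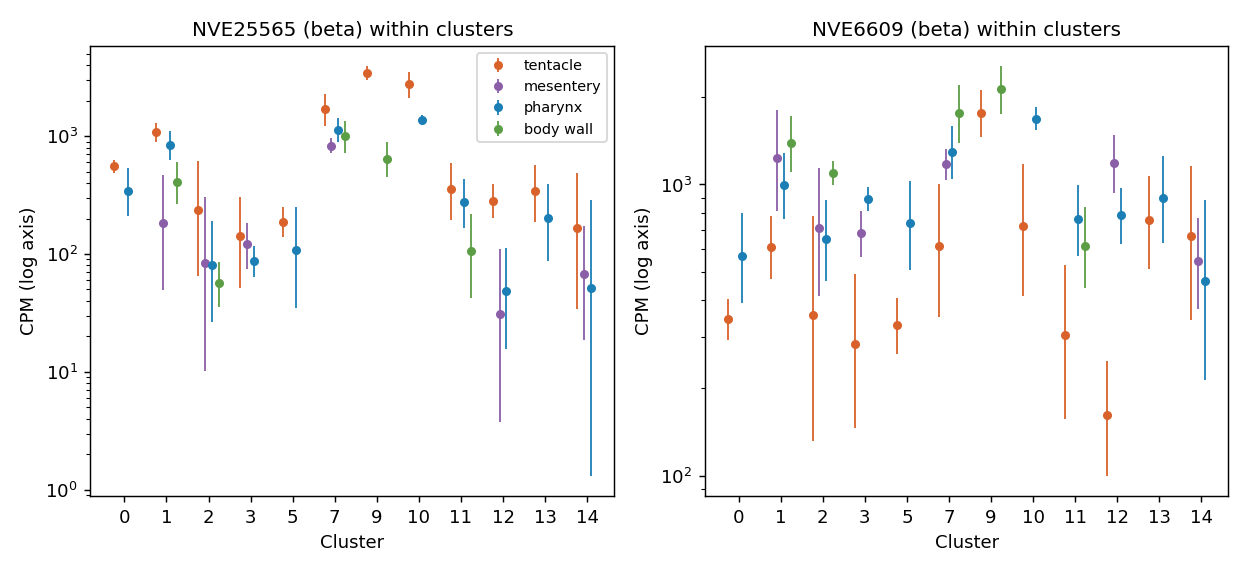
CPM of NVE25565 (left) and NVE6609 (right) by tissue inside each cluster that holds at least 20 barcodes of tentacle and of another tissue; the axis is logarithmic and bars are exact 95% Poisson intervals. The tentacle point of NVE25565 lies above the pharynx point in 11 of 11 clusters, and that of NVE6609 lies below it in 10 of 11.

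The other tubulins ranged widely in how far 1 cluster held their UMIs. NVE2702, the most abundant of them, had 6.74% of its UMIs in its highest cluster, at 864 CPM (cluster 18). Of the UMIs of NVE24203, 77.0% fell in cluster 1 (1168 CPM), which was led by the unnamed models NVE17329 and NVE244. NVE14933 reached 4507 CPM in cluster 9, 9035 CPM in its tentacle barcodes (591 UMIs) and 92.1 CPM in its body wall barcodes (5 UMIs). NVE24201 was highest in cluster 4, at 1934 CPM, which had the most Ncol3. NVE1706 was highest in cluster 22, at 1423 CPM, where NVE24199 was lowest among clusters with at least 50 barcodes.

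The genes with the most similar levels over the 24 clusters were ranked by Pearson's r of log2(CPM + 10), among 3155 models with at least 200 UMIs. The clusters share libraries and differ in depth, so r is a description. The gene most like NVE5239 was NVE6609 (r = 0.85), and the converse was also true. Next for both were NVE7995 (CCNI_HUMAN, a cyclin; 0.73 and 0.76), NVE2956 (PPR42_XENLA, a regulatory subunit of a phosphatase; 0.72 and 0.76) and NVE18698 (CI171_DANRE; 0.72 and 0.75). The fifth was NVE3937 (MK01_RAT, a mitogen-activated kinase; 0.71) for NVE5239 and NVE19012 (CC173_HUMAN; 0.71) for NVE6609.

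For NVE25565 the list was NVE2677 (TNR6A_MOUSE, a protein of microRNA silencing; 0.83), NVE2970 (OSER1_RAT; 0.83), NVE7063 (FoxN1, a transcription factor; 0.81), NVE8423 (SMYD4_MOUSE; 0.79) and NVE14874 (AKAP9_HUMAN, a scaffold at the centrosome and Golgi; 0.77). For NVE24199 it was NVE12899 (IST1_HUMAN, of membrane scission; 0.85), NVE4209 (HSP7C_RAT, a constitutive heat-shock chaperone; 0.85), NVE25652 (SNP29_PONAB, of vesicle fusion; 0.83), NVE21409 (SDCB1_HUMAN, an adaptor protein; 0.83) and NVE13315 (ATF4, a transcription factor of the stress response; 0.83). The alpha isotype resembled the beta isotypes less, with r of 0.39 to NVE5239, 0.22 to NVE6609 and 0.52 to NVE25565.

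Barcodes that favour a beta isotype were counted among those with at least 4 UMIs of the 3 beta isotypes: 315 in tentacle, 239 in mesentery, 467 in pharynx and 396 in body wall. These are the deeper barcodes, with medians of 2567, 1687, 1344 and 1998 UMIs. At least 75% of the beta UMIs came from 1 isotype in 47 tentacle barcodes (14.9%; 11.2 to 19.3), 26 mesentery barcodes (10.9%; 7.23 to 15.5), 47 pharynx barcodes (10.1%; 7.49 to 13.2) and 63 body wall barcodes (15.9%; 12.4 to 19.9). The intervals overlap.

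Which isotype was favoured differed between tissues, as their isotype shares did. NVE25565 was favoured in 27 of the 47 tentacle barcodes, NVE5239 in the other 20 and NVE6609 in 0. In body wall NVE5239 was favoured in 48 of 63 barcodes, NVE6609 in 12 and NVE25565 in 3. In mesentery the counts for NVE5239, NVE6609 and NVE25565 were 15, 6 and 5, and in pharynx 19, 15 and 13.

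Barcodes with no NVE25565 among at least 4 beta UMIs made up 16.2% in tentacle (12.3 to 20.7), 56.9% in mesentery (50.4 to 63.3), 40.7% in pharynx (36.2 to 45.3) and 72.0% in body wall (67.3 to 76.3). Both these values and the favoured isotype depend on the isotype shares of the tissue. Whether they differ from independent draws at those shares was not tested. Over all tissues 183 of 1417 barcodes favoured an isotype, 12.9% (11.2 to 14.8). The share depended on the rule: it was 11.9% with at least 3 beta UMIs, 4.19% with at least 6 and 1.48% when 90% had to come from 1 isotype.

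After thinning, NVE6609 was more frequent in barcodes with NVE5239 than in those without, in each tissue, a measure on which molecules counted for both models would also bear. In tentacle 30.9% of barcodes with NVE5239 had NVE6609 (25.6 to 36.7), against 7.93% of those without (6.35 to 9.76). In pharynx it was 43.6% against 13.1%, in mesentery 42.6% against 14.8% and in body wall 37.4% against 15.4%. The shares of NVE24199 in barcodes with and without NVE5239 lay closer together, with 33.8% against 27.7% in tentacle, and 28.3% against 28.6% in mesentery, 28.3% against 25.8% in pharynx and 25.7% against 25.2% in body wall.

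To see which genes go with NVE25565, barcodes with at least 50% of 3 or more beta UMIs from it (NVE25565-rich) were set against barcodes with none of it, in tentacle (132 rich, 86 without) and pharynx (80 rich, 310 without). Median depth was 1626.5 and 1576 UMIs in tentacle but 660 and 1166.5 in pharynx. Mesentery (17 rich) and body wall (13 rich) had too few rich barcodes to enter. Ratios are of CPM after adding 10. Of 1027 genes tested, 57 were at least 2-fold higher in the rich barcodes of both tissues (5.55%) and 77 at least 2-fold lower (7.5%). The total of 134 fell to 67 without the 5% of barcodes with the most UMIs and to 15 with barcodes thinned to 300 UMIs.

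The named genes highest in rich barcodes were NVE15733 (PDIA4_HUMAN, a protein folding enzyme), with a ratio of 18.1 in tentacle and 35.5 in pharynx, and NVE19785 (ENKUR_HUMAN, a protein of sperm flagella and cilia), with 12.4 and 14.998. NVE19041 (LEG_HELCR, a lectin) had 7.28 and 6.45, NVE531 (PGCA_CANFA) 5.60 and 64.8, NVE12609 (KREM1_HUMAN) 6.56 and 5.44, and NVE14871 (CNR11_MAIZE) 5.17 and 13.3. The named genes lowest were NVE25933 (TSP2_HUMAN), with 0.0151 and 0.137, NVE1389 (HMCN1_HUMAN), with 0.138 and 0.124, and the muscle gene NVE7520 (MP20_DROME), with 0.138 and 0.148. NVE15860 (NvVcaml-like) had 0.145 and 0.172, NVE9725 (FKB14_PONAB) 0.176 and 0.104, and NVE4355 (BGH3_MOUSE) 0.186 and 0.167. Some of these ratios rest on a few UMIs and on the 10 CPM added: in tentacle ENKUR_HUMAN had 1 UMI in barcodes without NVE25565 and 55 in rich ones, in pharynx PGCA_CANFA had 2 and 63, and HMCN1_HUMAN had 0 UMIs in the rich pharynx barcodes and 42 in the 310 set against them.

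The cluster that held the most rich barcodes differed between the tissues, though rich barcodes of both also shared clusters. In tentacle 28.8% of rich barcodes and 3.49% of those without lay in cluster 6, and in pharynx 32.5% and 3.55% lay in cluster 10. Cluster 10 also held 6.82% of the rich tentacle barcodes and 1.16% of those without. Cluster 0 held 25% and 26.7% of the same tentacle classes. Ncol3 had 7468 CPM in rich and 10970 CPM in the 86 tentacle barcodes set against them, and 367 and 2928 CPM in the same classes of pharynx. NVE24199 had a ratio of 0.765 in tentacle and 1.37 in pharynx.

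The machinery that folds, modifies and moves along tubulin was read from 6 lists set by gene name. Of the folding list (prefoldin, the ring chaperone that folds actin and tubulin, and tubulin cofactors), 17 of 27 genes had at least 50 UMIs. None was tissue-high, where 4.23% of all models were in tentacle, 1.8% in mesentery, 1.63% in pharynx and 2.75% in body wall. The most abundant folding gene was the ring subunit NVE2945 (TCPZ_MOUSE), with 60.8 CPM in tentacle, 75.5 CPM in mesentery, 52.6 CPM in pharynx and 50.9 CPM in body wall. It was followed by NVE20970 (TCPH_CHICK) and NVE1563 (TCPQ_CHICK), whose ratios of highest to lowest tissue were 1.45 and 1.15. Of 5 folding genes with at least 200 UMIs, 2 had a ratio of at least 2, beside 65.4% of all models.

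The modification list had 10 of 31 genes with at least 50 UMIs, of which 1 was tentacle-high, beside 4.23% of all models. NVE11274 (TTLL1_HUMAN), named after an enzyme that adds glutamate chains to tubulin, had 46.7 CPM in tentacle, 35.8 CPM in mesentery, 105 CPM in pharynx and 49.4 CPM in body wall, and NVE26124, of the same name, had 26.9 CPM in pharynx and at most 9.48 CPM elsewhere. NVE9879 (HDAC6_MOUSE), named after a tubulin deacetylase, was highest in mesentery, at 37.1 CPM.

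In the list of microtubule-associated proteins, with 9 of 24 genes at 50 UMIs or more, the end-binding protein model NVE234 (MARE1_COTCO) had 173 CPM in tentacle, 99.1 CPM in mesentery, 86.7 CPM in pharynx and 133 CPM in body wall. NVE13092 (MAP2_HUMAN) had between 22.0 and 33.3 CPM, and NVE20607 (DCLK3_HUMAN), a kinase with a name of the doublecortin family, had 37.4 CPM in pharynx and 1.50 CPM in body wall. None of the list was tissue-high, beside the same shares of all models as for the folding list.

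Of the motor list, 21 of 63 genes had at least 50 UMIs, of which 3 were tentacle-high (4.23% of all models) and 1 was body wall-low (0.414% of all models). The dynein light chain models NVE15538 (DYL1_HELCR) and NVE8773 (DLRB2_BOVIN) were the only 2 genes of the list tested between NVE25565-rich barcodes and those without. Both were at least 2-fold higher in the rich ones, beside 5.55% of all 1027 genes tested. The ratios were 2.40 in tentacle and 3.47 in pharynx for the first, and 2.17 and 4.98 for the second. The folding list and the list of microtubule-associated proteins had 1 tested gene each, and neither was called. NVE12828 (KINH_DORPE), a kinesin heavy chain, had between 44.9 and 65.6 CPM.

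The axoneme and cilium list had 31 of 125 genes with at least 50 UMIs, and 9 of 10 with at least 200 UMIs had a ratio of at least 2 between tissues, beside 65.4% of all models. NVE13866 (RSPH1_MOUSE), a radial spoke protein, had 0 UMIs in tentacle, 113 in mesentery, 259 in pharynx and 1 in body wall. NVE23431 (RSPH3_HUMAN) had 34, 102, 220 and 64 UMIs, and NVE3323 (IFT20_MOUSE), of transport along the cilium, was even, with 39.9 to 48.3 CPM. The list made up 0.0493% of tentacle UMIs, 0.0808% in mesentery, 0.103% in pharynx and 0.0296% in body wall, an order unlike that of any beta isotype.

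Of the spindle and division list, 3 of 29 genes had at least 50 UMIs. NVE26120 (PCNA_XENLA), the clamp of DNA replication, had 73.2 CPM in tentacle, 38.4 CPM in mesentery, 25.0 CPM in pharynx and 22.0 CPM in body wall. NVE11158 (PLK1_MOUSE), a kinase of mitosis, was tentacle-high (4.23% of all models), with 86, 3, 21 and 5 UMIs in the same order. NVE18476 (BUB3_MOUSE), of the spindle checkpoint, had between 7.67 and 10.8 CPM.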

How the data were processed

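The values deposited by the authors are whole-number counts of UMIs for each gene model in 7000 barcodes per library. The submitters' processing notes name Cell Ranger 2.1.0, and per the labels' protocols cells were dissociated with TrypLE. The genome build and the way barcodes were called are not stated there. Barcodes with at least 300 UMIs were kept and summed per tissue. CPM carry exact Poisson intervals, ratios exact conditional intervals and shares Clopper-Pearson intervals (scipy 1.17.1). No doublet caller was run; leaving out the 5% of barcodes with the most UMIs was an alternative. Thinning used seed 1. Clustering used scanpy 1.11.5 (2000 variable genes without tubulins, 30 components, 15 neighbours, Leiden resolution 1). Leading genes were detected in at least 20% of barcodes of a cluster.

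Named are the 4 isotypes, other tubulins with at least 50 UMIs, the 5 named genes most like each isotype, up to 6 named genes each way between barcode classes and the 3 most abundant genes of each list. Tissue-high means 4-fold above, and tissue-low 0.25-fold of, every other tissue, with at least 50 UMIs. The members and lists were chosen with earlier results of these data known. The NVE25565-rich comparison (10 CPM added, at least 30 UMIs in each tissue), the pair index and the pair's split were chosen after seeing the data. The lists were filled by name patterns, so genes without such names were missed. Levels under 3 UMIs were set to 3 UMIs in ratios of highest to lowest tissue and in tissue-high and tissue-low calls.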

Additional observations from a re-analysis of the deposited data

How the results depend on the processing

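No paired analysis was possible because each tissue has 1 library. The ratio of NVE6609 and that of NVE25565 moved by less than their counting intervals under every alternative run. For NVE24199 the ratio of body wall to pharynx was 1.10 with all barcodes, 1.10 without the 5% of barcodes with the most UMIs, 1.29 with median-of-ratios scaling and 0.966, below 1, as a mean of barcode CPM. For NVE5239 the ratio of body wall to tentacle was 1.05 without the 5% of barcodes with the most UMIs, 1.24 without ribosomal protein genes and 1.28 with median-of-ratios scaling. That scaling set the body wall apart from the total by -0.11 on the log2 scale and each other tissue by 0.03 to 0.04. The share of barcodes that favour an isotype was 4.19% with at least 6 beta UMIs and 1.48% with the 90% rule. The comparison of barcodes that favour different isotypes was usable in tentacle only (27 and 20 barcodes): of 500 genes, 23.2% were at least 2-fold higher and 23.6% lower with NVE25565, 234 in all and 145 at 3-fold, and the 90% rule left too few barcodes for a value. The NVE25565-rich comparison gave 134 genes, 69 at 3-fold, 67 without the 5% of barcodes with the most UMIs and 15 after thinning. The pair index of NVE5239 and NVE6609 was 0.623 after thinning and 0.213 in barcodes under 300 UMIs. The causes of these shifts were not tested. The NVE5239 share of the pair in tentacle stayed between 66.2% and 68.0%. With other Leiden resolutions the highest cluster level of each beta isotype was higher, up to 3272 CPM for NVE25565. Depth limits the values inside clusters, several of which rest on fewer than 10 UMIs.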
